A study of Caenorhabditis elegans with 2 samples.

Results

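The heterochronic timing genes set the order of larval events in Caenorhabditis elegans, and 10 of them were examined here for binding by ZTF-11, a zinc-finger protein of the MYT1 family that acts in the nucleus. The genes were lin-14, lin-28, lin-46, hbl-1, lin-66, lin-41, nhl-2, daf-12, lin-42 and lin-29, out of 19973 protein-coding genes on the nuclear chromosomes. They were chosen by name, from their place in the pathway. Both these genes and the rule below were chosen with earlier results of these data known, so the shares are descriptions only. A gene was counted as having a site where the summit of a ZTF-11 peak lay inside the gene or within 2000 bp of its annotated 5′ end. By this rule 7 of the 10 genes had a site, against 11.9% of all coding genes. The 7 genes held 10 summits, of 1875 in all.

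The peaks came from chromatin immunoprecipitation followed by sequencing (ChIP-seq) on whole hermaphrodites of strain OP511. This strain carries unc-119(tm4063) III and the integrated transgene wgIs511, from which ZTF-11 is expressed with a GFP-FLAG tag at its C-terminus. The larvae had been starved in L1, the first larval stage, after bleaching and were collected 6 hours after that synchronization, and the tagged protein was precipitated with an anti-GFP antibody. There was 1 group of 2 biological replicates and no group without the transgene, so no comparison between conditions was possible. Reads of the control library were not analysed here. Because whole worms were used, a site in a few cells and weaker binding in many cells cannot be told apart, and ZTF-11 was measured as a tagged transgene product.

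In the heterochronic pathway, regulators of early larval fates such as LIN-14, LIN-28 and HBL-1 are switched off in turn by microRNAs, small RNAs that pair with messenger RNAs and lower their output. The microRNA lin-4 acts early and let-7 with its relatives acts later, so that epidermal stem cells called seam cells move from one larval programme to the next and stop dividing at adulthood. Loss of an early regulator makes later events occur too soon, and loss of a microRNA makes early events repeat.

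The authors deposited a list of regions for each replicate, a list for the pooled replicates, each with 30000 regions that reach into background, and a list of 1875 peaks that passed an irreproducible discovery rate (IDR) filter. Each of the 1875 IDR peaks equalled a pooled region in summit and signal, and together they were the 1875 strongest regions of the pooled list. Signal is the authors' own enrichment value per region. It ran from 66.2 through a median of 107 to 1072 among IDR peaks and is on a different scale in each list (the highest value was 713 in replicate 1 and 349 in replicate 2). Regions are therefore compared between lists by their rank, with rank 1 the strongest. Read depth is not known from these lists, so no counting error is attached to a signal, and the error of a site is shown only by its rank and summit in each replicate.

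The 7 genes with an IDR summit were lin-14, lin-28, lin-66, lin-41, nhl-2, daf-12 and lin-42. Lin-46, hbl-1 and lin-29 had none. The rule counts summits anywhere in a gene, so a long gene has more room for one, and 8 of the 10 timing genes span 5000 bp or more. Of these 8, 6 had a summit, against 18.8% of all coding genes of that length. Of the 2 shorter genes, lin-28 had a summit and lin-46 had none, against 10.5% of shorter coding genes. Lin-28, daf-12 and lin-42 each had a pair of summits, so 3 of 10 genes had more than 1, against 1.35% of coding genes. The share was 3.28% among coding genes of 5000 bp or more, as daf-12 and lin-42 are, and 0.98% among shorter ones, as lin-28 is. The daf-12 pair was a single region in replicate 2, and without it 2 genes remain in this count. When the 1875 strongest regions of replicate 1 alone were used, 7 of the 10 genes had a summit, against 11.6% of coding genes. With the 1875 strongest of replicate 2 alone it was also 7 of 10, against 11.6%, and the 7 genes were the same in both replicates.

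The position of the summits mattered for this count. Only lin-28, lin-66 and nhl-2 had a summit within 1000 bp of the gene's 5′ end, which is 3 of 10 genes against 8.09% of coding genes. The sites of lin-14, daf-12 and lin-42 lay inside the gene, and that of lin-41 lay farther upstream. With only the 937 strongest IDR peaks, 4 of 10 genes (lin-28, lin-66, nhl-2 and lin-42) had a summit, against 6.94% of coding genes. The 10 summits had a median signal of 104 and a median rank of 985.5, against 107 and 938 over all IDR peaks, and 5 of the 10 were among the 937 strongest IDR peaks.

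The sequences under 7 of the 10 summits are shown, among them the windows richest in G and C and those with the motif CTGCGTCT. The lin-14 window (48.5% G and C, no CTGCGTCT) fits neither reason and is shown in addition. Both lin-28 windows and the lin-41 window are left out. Each sequence shown is the reference of WBcel235 (ce11, RefSeq copy) on the strand of the gene, 5′ to 3′, 50 bp on either side of the summit. The daf-12 stretch of 300 bp holds both of its summits. Capitals mark GAGAGA or CTGCGTCT on either strand, so TCTCTC and AGACGCAG are the same motifs read on the other strand. The stretches are chrX:11467405-11467505 (plus strand) for lin-14, chrIV:13887594-13887694 (plus) for lin-66, chrIII:4899864-4899964 (minus) for nhl-2, chrX:10637445-10637744 (plus) for daf-12, and chrII:1247086-1247186 and chrII:1237964-1238064 (minus) for lin-42.
lin-14: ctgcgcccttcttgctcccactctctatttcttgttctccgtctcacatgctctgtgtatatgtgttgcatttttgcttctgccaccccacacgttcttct
lin-66: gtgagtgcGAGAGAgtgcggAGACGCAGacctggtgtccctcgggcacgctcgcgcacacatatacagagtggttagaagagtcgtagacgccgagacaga
nhl-2: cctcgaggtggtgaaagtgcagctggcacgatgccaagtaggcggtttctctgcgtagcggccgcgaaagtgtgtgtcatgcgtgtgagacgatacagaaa
daf-12, both summits: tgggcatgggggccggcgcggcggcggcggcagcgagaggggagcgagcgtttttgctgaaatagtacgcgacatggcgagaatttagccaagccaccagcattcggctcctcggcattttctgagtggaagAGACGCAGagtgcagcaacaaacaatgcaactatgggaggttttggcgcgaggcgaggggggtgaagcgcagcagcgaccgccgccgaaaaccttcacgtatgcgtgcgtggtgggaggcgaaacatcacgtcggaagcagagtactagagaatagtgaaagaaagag
lin-42, 5′ summit: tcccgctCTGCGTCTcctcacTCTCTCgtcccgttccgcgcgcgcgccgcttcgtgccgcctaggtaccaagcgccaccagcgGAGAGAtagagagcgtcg
lin-42, 3′ summit: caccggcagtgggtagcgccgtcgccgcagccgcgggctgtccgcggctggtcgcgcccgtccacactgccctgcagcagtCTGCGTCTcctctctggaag

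Both lin-42 windows and the lin-66 window held CTGCGTCT, and the daf-12 stretch held it between its 2 summit windows. The lin-14 window is a run rich in pyrimidines and held neither motif. The nhl-2 window, under the strongest of the sites, held neither motif either. These matches describe the letters of a window and show no binding site by themselves.

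**Figure D1:**
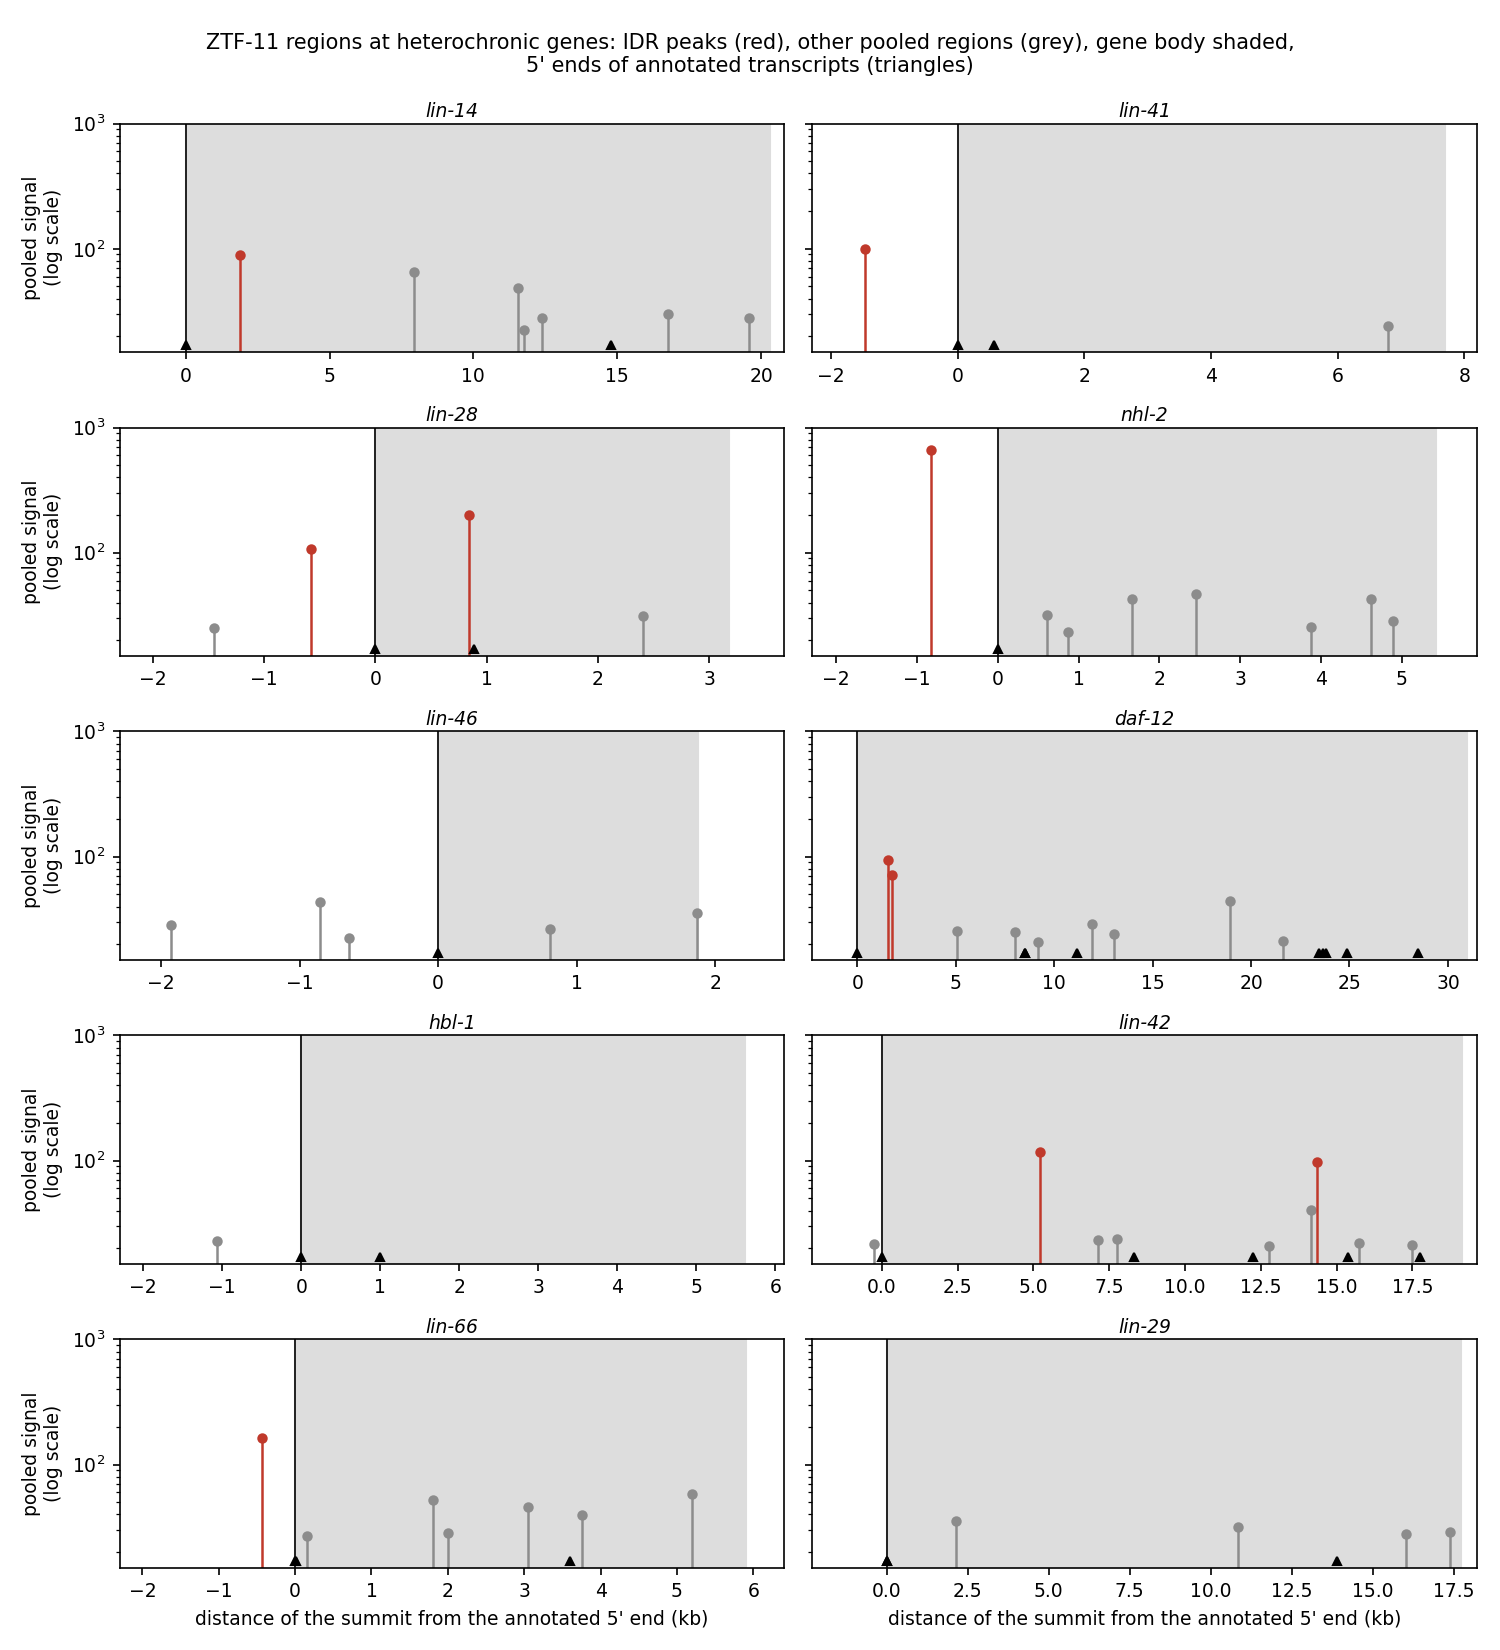
Pooled signal (log scale, y axis) of every pooled region at the 10 timing genes against the distance of its summit from the gene's annotated 5′ end in kb (x axis), with IDR peaks in red, other pooled regions in grey, the gene body shaded and the 5′ ends of annotated transcripts as triangles. IDR summits stand at 7 genes and none at lin-46, hbl-1 and lin-29, and those of lin-14, daf-12 and lin-42 are inside the gene.

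The early regulators lin-14 and lin-28 both had IDR summits. Lin-14 encodes a nuclear regulator of L1 fates and is the classical target of lin-4. It is WBGene00003003, on the plus strand at chrX:11465560-11485871. Its summit, in the peak chrX:11467273-11467636, lay 1895 bp downstream of the 5′ end, in the first intron (2818 bp) of the longer transcript. The second annotated 5′ end of lin-14 was 12906 bp downstream of the summit. The summit also fell 75 bp inside T25C12.7, a non-coding RNA gene on the opposite strand. The signal was 89.7 in the pooled list (rank 1191), 42.7 in replicate 1 (rank 1844) and 38.2 in replicate 2 (rank 1035). The site was thus near the end of the 1875 strongest regions in replicate 1 and well within them in replicate 2, with replicate summits 1 bp and 94 bp from the pooled summit. A further region in lin-14, 7933 bp downstream of the 5′ end, was just outside the IDR list at rank 1903 with a signal of 65.6. It ranked 1486 in replicate 1 and 4620 in replicate 2, so it was among the 1875 strongest regions in replicate 1 and not in replicate 2.

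Lin-28 encodes an RNA-binding protein that holds back maturation of let-7. It is WBGene00003014, on the minus strand at chrI:8407630-8410804, and it had a summit near each of its 2 annotated 5′ ends. The stronger, in chrI:8409782-8410145, lay 44 bp upstream of the start of the shorter transcript, which places it in the first intron (1322 bp) of the longer transcript. Its signal was 200.1 in the pooled list (rank 359), 113 in replicate 1 (rank 442) and 81.8 in replicate 2 (rank 325). The replicate summits were 0 and 2 bp from the pooled summit, so position and rank were close in both replicates. The weaker, in chrI:8411197-8411560, was intergenic and lay 575 bp upstream of the longer transcript. It had a signal of 107 in the pooled list (rank 935), 66.5 in replicate 1 (rank 965) and 39.2 in replicate 2 (rank 999). The ranks were close, but the replicate summits were 124 bp apart, on either side of the pooled summit. This weaker summit was also 1043 bp upstream of the coding gene F02E9.7. The 2 lin-28 summits were 1415 bp apart.

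Lin-66, lin-46 and hbl-1 act close to lin-28 in the pathway, and of the 3 only lin-66 had an IDR summit. Lin-66 lowers lin-28 output. It is WBGene00001562, on the plus strand at chrIV:13888079-13893986. Its summit, in chrIV:13887462-13887825, was intergenic, 435 bp upstream of the 5′ end. The signal was 165 in the pooled list (rank 491), 93.1 in replicate 1 (rank 610) and 59.1 in replicate 2 (rank 530). Both replicate summits were within 10 bp of the pooled summit, and 73.8% of IDR peaks had a lower signal. No other coding gene was in reach of this summit, while 7 piRNA genes had their 5′ ends within 2000 bp of it. A weaker region at the other end of lin-66, in the 3′ UTR 5204 bp downstream of the 5′ end, was outside the IDR list at rank 2219 (signal 58.7).

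Lin-46 encodes a gephyrin-like protein that acts downstream of lin-28. It is WBGene00003031, at chrV:12968855-12970730 on the plus strand, and is the shortest of the 10 genes at 1876 bp. Its best region, chrV:12967819-12968182, was intergenic, 854 bp upstream, with a signal of 43.5 and a pooled rank of 3953. In replicate 1 the region ranked 3669, and in replicate 2 the nearest region, 176 bp away, ranked 3492. No replicate placed it among the 1875 strongest, and the nearest IDR summit was 34682 bp downstream of the 5′ end.

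Hbl-1 encodes a hunchback-like zinc-finger protein that represses later fates. It is WBGene00001824, on the plus strand at chrX:5822142-5827755. It had the least signal of the 10, with 1 pooled region in reach, 1065 bp upstream, at rank 23987 (signal 22.9). The nearest regions to it ranked 19433 in replicate 1 and 16263 in replicate 2. The best region by the rule in either replicate ranked 14586 in replicate 1 and 8851 in replicate 2, at different places. All of these lay far below rank 1875, and the nearest IDR summit was 10038 bp upstream (rank 1429, signal 79.1).

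The 2 TRIM-NHL genes both had summits, of unequal strength. Nhl-2 encodes a cofactor that enhances the action of microRNAs. It is WBGene00003598, on the minus strand at chrIII:4893658-4899085, and its summit, in chrIII:4899809-4900062, lay 829 bp upstream. The signal was 656 in the pooled list (rank 16), 376 in replicate 1 (rank 28) and 283 in replicate 2 (rank 8). This was the strongest of the 10 sites in the pooled list and in both replicates, and 99.1% of IDR peaks had a lower signal. The same summit was nearer to the coding gene tag-340, 594 bp upstream of it on the opposite strand, and lay 36 bp inside the non-coding RNA gene F26F4.14. These lists do not show which of the 3 genes the site serves. Given only to the coding gene with the nearest 5′ end, it would count for tag-340, and 6 of the 10 timing genes would have a summit, against 8.23% of coding genes by that rule.

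Lin-41 encodes a TRIM-NHL protein that is a main target of let-7 and blocks the larval-to-adult switch. It is WBGene00003026, on the minus strand at chrI:9334800-9342496. Its summit, in chrI:9343781-9344144, was intergenic, 1467 bp upstream of the first annotated 5′ end and 2044 bp upstream of the other. The signal was 99.99 in the pooled list (rank 1036), 55.6 in replicate 1 (rank 1262) and 39.4 in replicate 2 (rank 988). Summits in the replicates were 0 and 42 bp away, and no other gene, coding or non-coding, was in reach. Within lin-41 the lists held 1 other pooled region, at rank 20703.

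Daf-12 encodes the nuclear hormone receptor that ties developmental timing to the choice between reproductive growth and the dauer stage. It is WBGene00000908, on the plus strand at chrX:10635908-10666875, and with 30968 bp it is the longest of the 10 genes. Its 2 summits lay 199 bp apart in the first intron (8353 bp) of its longest transcript, 1587 and 1786 bp downstream of the 5′ end. Of all IDR summits, 80 (4.27%) had another within 250 bp. The first, in chrX:10637313-10637676, had a signal of 94.0 in the pooled list (rank 1129) and 75.4 in replicate 1 (rank 813), and no summit within 100 bp in replicate 2. The second, in chrX:10637512-10637875, had a signal of 70.9 in the pooled list (rank 1702), 30.1 in replicate 1 (rank 3760) and 33.8 in replicate 2 (rank 1257). The replicates therefore placed the stronger summit differently, at the first position in replicate 1 and, with a single region, at the second position in replicate 2. Daf-12 had 1 region among the 1875 strongest in each replicate, so the gene is counted in both. Whether the 2 summits are separate sites or a single one cannot be told apart here.

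Lin-42, the Period homologue that oscillates over the moult cycle and times larval transitions, had 2 summits far from each other. It is WBGene00018572, on the minus strand at chrII:1233236-1252359, with 5 annotated 5′ ends. The 5′ summit, in chrII:1246954-1247317, lay 5223 bp downstream of the gene's 5′ end, in a first intron of 8173 bp, and 3101 bp upstream of the next annotated 5′ end. It fell 17 bp inside F47F6.15, a non-coding RNA gene on the same strand, and the 5′ end of another non-coding RNA gene, F47F6.13, was 168 bp away. The signal was 117 in the pooled list (rank 831), 80.9 in replicate 1 (rank 748) and 33.4 in replicate 2 (rank 1288). The 3′ summit, in chrII:1237832-1238195, lay 9122 bp away in an intron of 3559 bp, 1045 bp upstream of the 5′ end of a short transcript. Its signal was 97.3 in the pooled list (rank 1078), 68.1 in replicate 1 (rank 927) and 33.2 in replicate 2 (rank 1294). Both sites were stronger by rank in replicate 1 and lay among the 1875 strongest in each replicate.

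Lin-29 encodes the zinc-finger factor that triggers the larval-to-adult switch of the epidermis. It is WBGene00003015, on the minus strand at chrII:11917642-11935343, and spans 17702 bp. Its best region lay in a coding exon 2136 bp downstream of the 5′ end, at pooled rank 7128 with a signal of 35.3. It ranked 8447 in replicate 1 and 27872 in replicate 2. Replicate 2 alone had its best region elsewhere, 17386 bp downstream at rank 3404. In neither replicate was a region at lin-29 among the 1875 strongest, and the nearest IDR summit was 24011 bp upstream (rank 1308, signal 84.2).

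**Figure D2:**
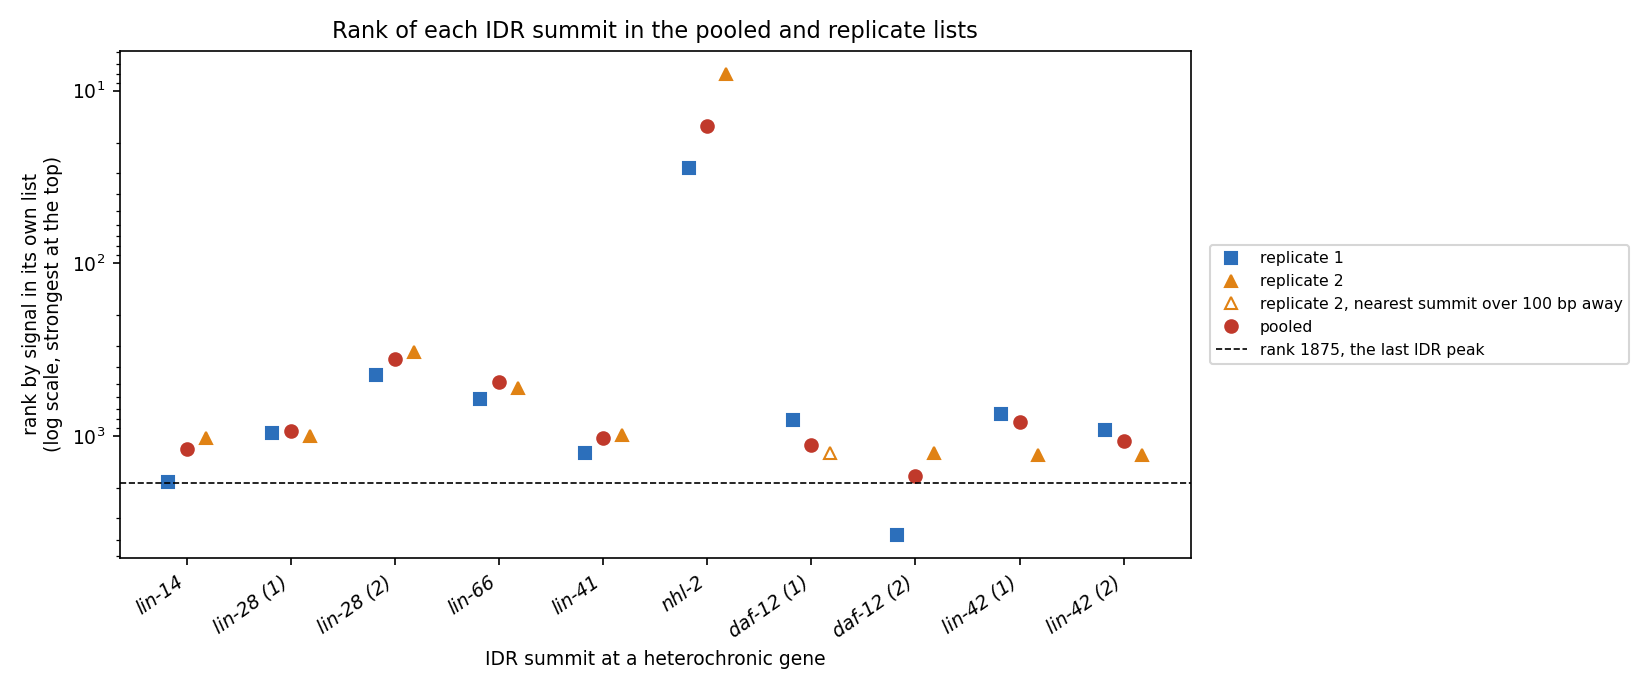
Rank by signal (y axis, log scale, strongest at the top) of each of the 10 summits in replicate 1 (squares), the pooled list (circles) and replicate 2 (triangles), with the x axis naming the summit and the dashed line at rank 1875. Nhl-2 is the strongest site in all 3 lists, the stronger lin-28 summit comes next, and the second daf-12 summit falls below the line in replicate 1; the open triangle is a replicate 2 summit 205 bp away.

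Within 100 bp, all 10 summits had a match in replicate 1 and 9 in replicate 2, so 9 of 10 were matched in both, against 1783 of 1875 IDR peaks (95.1%). The IDR list was made from both replicates, so such a match is not independent of the choice of peaks. The positions were less well shared in replicate 2. Over the 9 summits matched in both, the median distance to the pooled summit was 1 bp in replicate 1 and 42 bp in replicate 2, against 2 and 12 bp for the matched IDR peaks. Within 10 bp, 9 of the 10 summits were matched in replicate 1 and 3 in replicate 2. The replicate 2 summits of lin-14, lin-28 (the weaker), lin-41 and lin-42 (both) were 42 to 95 bp off.

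Few of the weaker regions at these genes were shared by the replicates. The 10 genes had 56 pooled regions in reach, and 46 of these were outside the IDR list. Of the 46, 5 were matched in both replicates, against 22.7% of the 28125 pooled regions outside the IDR list. The 5 were the lin-14 and lin-66 regions described above, the lin-29 region, and a pair in nhl-2 at 2447 bp (a coding exon, rank 3285) and 4624 bp (the 3′ UTR, rank 4119) downstream of its 5′ end. None of these 5 was among the 1875 strongest regions in both replicates.

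The class of sequence under the summits was mixed. Of the 10 summits, 3 were intergenic (lin-28, lin-66 and lin-41), 4 were in introns (lin-28, both of daf-12 and lin-42) and 3 in exons of non-coding RNA genes (lin-14, nhl-2 and lin-42). None was in a coding exon or UTR. Among all IDR peaks 64.1% were intergenic, 17.2% intronic and 11.7% in non-coding exons. Summits within 100 bp of the 5′ end of a non-coding RNA gene numbered 3 of 10 (lin-14, nhl-2 and the 5′ lin-42 site), against 313 of 1875 (16.7%) in the IDR list. The peak width gave no distinction, since 9 of the 10 peaks had the commonest width of 364 bp, as did 85.3% of IDR peaks.

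Base composition varied widely over the sites. The share of G and C in the 101-bp windows ran from 37.6% at the weaker lin-28 summit to 73.3% at the 3′ lin-42 summit, with a median of 55.9%, against 48.9% ± 7.87 (SD over windows, n = 1875) and a median of 49.5% in the IDR list. The 3′ lin-42 window was richer in G and C than 99.9% of IDR windows and the 5′ lin-42 window (68.3%) than 99.4%. The first daf-12 window (65.3%) was richer than 98.5%. These 3 sites lie inside long genes. So do the lin-14 window (48.5%) and the second daf-12 window (55.4%), which were richer than 42.5% and 77.9% of IDR windows. At the other end, the weaker lin-28 window was richer than 6.61% of IDR windows, and the stronger lin-28 and the lin-41 windows (50.5% each) were near the middle. The part of base composition in these signals was not tested.

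Of the 6 short motifs searched on both strands, none was in most of the windows. GAGAGA was in 3 of the 10 windows (the stronger lin-28, lin-66 and the 5′ lin-42 summit), against 23.8% of IDR windows. CTGCGTCT was in 3 of 10 (lin-66 and both of lin-42), against 8.75%. The cell-cycle motif TTTGAA was in 1 (the stronger lin-28 summit), against 17.2%, and its variant TTCGAA in 0, against 5.49%. GGCGGG was in 0 of 10, against 7.73%. AAGTT, the core known for MYT1-family proteins in mammals, was in 0 of 10, against 13.2% of IDR windows. Within 25 bp of the summit GAGAGA was in 0 of 10, against 13.0% of IDR windows. CTGCGTCT and AAGTT were also in 0 of 10 at 25 bp, against 5.23% and 6.03%. Wider windows held more matches. Over the whole peak GAGAGA was in 7 of 10, against 44.9%, CTGCGTCT in 5 of 10, against 15.1%, and AAGTT in 3 of 10, against 47.1%. GAGAGA on the other strand (TCTCTC) can share letters with the end of CTGCGTCT, but in the windows printed above the 2 motifs stood apart.

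Beyond these 10 genes, 41 further genes of the pathway were listed, of which 40 were found in the annotation. Of the 40, 12 had an IDR summit, and of the 34 that code for protein 10 had one, against the 11.9% of all coding genes given above. By length, 7 of 21 with 5000 bp or more had a summit, against 18.8% of all such genes, and 3 of 13 shorter ones did, against 10.5%. All 16 summits of these genes were matched in both replicates, against 95.1% of all IDR peaks. The IDR list was itself made from both replicates. The genes with a summit were 2 of 6 microRNA and other RNA genes, 5 of 10 genes of microRNA processing and action, 4 of 19 other timing regulators and 1 of 5 genes of the DAF-12 ligand pathway.

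The microRNA genes lin-4 and let-7 each had a weak IDR summit. Of the 5 microRNA genes of the list 2 had a summit, against 21.1% of the 261 microRNA genes in the annotation. The lin-4 summit lay 342 bp upstream of the annotated gene, with a signal of 72.4 in the pooled list (rank 1653), 47.6 in replicate 1 (rank 1592) and 26.6 in replicate 2 (rank 1874). It was inside the coding gene F59G1.4, with the non-coding RNA genes F59G1.10, F59G1.11, F59G1.12 and F59G1.13 in reach, and it stood at the very edge of the 1875 strongest regions in replicate 2. The let-7 summit was 1846 bp upstream of the annotated let-7 gene and 136 bp upstream of the coding gene C05G5.2. Its signal was 67.5 in the pooled list (rank 1813), 32.0 in replicate 1 (rank 3202) and 31.0 in replicate 2 (rank 1450). The let-7 site was thus outside the 1875 strongest regions in replicate 1 and within them in replicate 2. The let-7 relatives mir-48, mir-84 and mir-241 had none, and their best pooled regions ranked 8951, 14840 and 6818. Lep-5, a long non-coding RNA that limits LIN-28, had none either (best rank 9613). The windows under the lin-4 (chrII:5901862-5901962, plus strand) and let-7 (chrX:14747117-14747217, minus strand) summits are shown with the same marking. They were chosen since lin-4 and let-7 are the microRNAs that act on lin-14, lin-28 and lin-41. Both windows held GAGAGA near their end, at bases 92 and 94 of 101 at lin-4 (on the other strand) and at base 94 at let-7. GAGAGA was in 8 of the 16 windows of the further pathway genes, among them both of these, against 23.8% of IDR windows.
lin-4: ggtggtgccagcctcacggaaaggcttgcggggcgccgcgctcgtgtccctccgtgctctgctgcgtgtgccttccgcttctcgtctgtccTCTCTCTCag
let-7: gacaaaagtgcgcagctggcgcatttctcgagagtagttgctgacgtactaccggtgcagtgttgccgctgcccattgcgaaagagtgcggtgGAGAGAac

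Among genes of microRNA processing and action, 5 of 10 had a summit, against 11.9% of all coding genes and 18.8% of those of 5000 bp or more. Ain-1, a GW182-family partner of the Argonautes, had 2 summits 206 bp apart, with signals of 194 (rank 382) and 117 (rank 825), 981 and 775 bp upstream. Alg-1, an Argonaute of microRNAs, had 2 weaker ones, with signals of 70.6 (rank 1709) and 77.8 (rank 1473). Pash-1, the partner of Drosha, had a summit 93 bp upstream (signal 116, rank 837). The summits of xrn-2 (293, rank 196) and cgh-1 (129, rank 717) lay nearer to other coding genes, Y48B6A.1 and rpl-43 for xrn-2, and sap-140 and C07H6.9 for cgh-1. The snoRNA gene K02B9.10 was in reach of both alg-1 summits, and the microRNA gene mir-1828 of that of pash-1. Alg-2, ain-2, dcr-1, drsh-1 and pup-2 had none, and dcr-1, the gene of Dicer, had no pooled region at all in reach.

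Of 19 other timing regulators, 4 had a summit, against 11.9% of all coding genes and 18.8% of those of 5000 bp or more. Puf-9, a Pumilio-family RNA-binding protein that acts with let-7 on hbl-1, had the second strongest site of all the pathway genes after nhl-2. Its summit was 289 bp upstream with a signal of 471 (rank 55), and it ranked 55 in replicate 1 and 54 in replicate 2. It was shared with dct-11, whose 5′ end was 1525 bp away, and with the non-coding RNA genes W06B11.7 (47 bp) and W06B11.9 (118 bp). Myrf-1 and myrf-2, membrane-bound transcription factors needed for lin-4 expression, had summits with signals of 173 (rank 456) and 141 (rank 645). The myrf-1 summit was 319 bp upstream, and a non-coding RNA gene, F59B10.7, began 208 bp away. The myrf-2 summit lay 5729 bp downstream of the 5′ end, inside the gene, and the nearest coding 5′ end was that of arrd-28. Kin-20, the casein kinase partner of lin-42, had an internal summit with a signal of 118 (rank 812), and the non-coding RNA gene F46F2.12 began 52 bp away, with F46F2.9 and F46F2.10 also in reach. Sea-2, nhr-25, nhr-85 and apl-1 fell just outside, with best ranks of 2111, 2363, 2446 and 2566, and the next was dre-1 at 3844.

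In the pathway that makes and reads the ligand of DAF-12, din-1 alone had summits. This is 1 of 5 genes, against 11.9% of all coding genes and 18.8% of those of 5000 bp or more. Din-1 is the corepressor of DAF-12, and it had 3, with signals of 126 (rank 738), 119 (rank 804) and 73.4 (rank 1607). The stronger pair were shared with the non-coding RNA gene ZK20.8 and the snoRNA gene ZK20.9, and the weakest with F07A11.10 and the snoRNA gene F07A11.15. The enzymes of ligand synthesis daf-9, daf-36, dhs-16 and hsd-1 had none, and the best of their regions was at rank 3853, for daf-36.

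**Figure D3:**
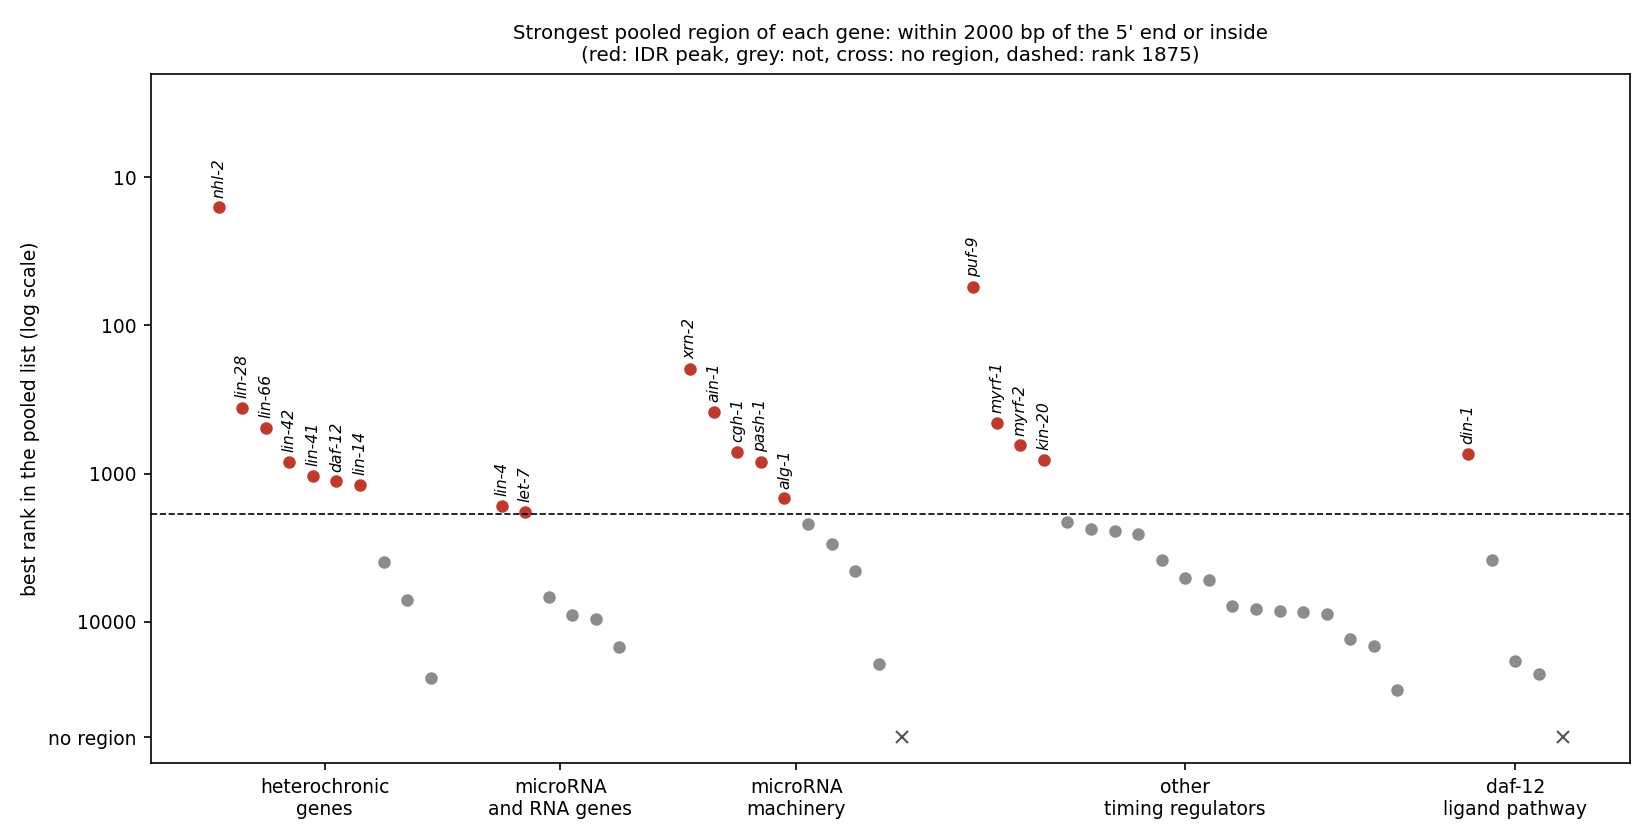
Best rank of any pooled region (y axis, log scale) within 2000 bp of the 5′ end or inside the gene, for the 10 timing genes and 40 further pathway genes by list (x axis), with IDR peaks in red, other regions in grey, genes with no region as crosses and the dashed line at rank 1875. Nhl-2 (rank 16) and puf-9 (rank 55) stand above the rest, lin-4 and let-7 lie just above the line, and dcr-1 and dhs-16 had no region.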

How the data were processed

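ZTF-11-GFP ChIP-seq was deposited for 2 biological replicates of 1 group. According to text files that the authors deposited, regions were called on each replicate and on the pooled replicates with a control, and the IDR list was derived from these. The aligner, caller and threshold of the IDR step were not given in the sources used here, which were labels and text files. The deposited lists on ce11 hold, per region, the authors' signal, a −log10 q-value and a summit. The −log10 q-value in the authors' pooled list was capped at 3.34, a value that 58.8% of IDR peaks and 7 of the 10 summits reached, so regions were ranked by the authors' signal. The lists on ce10 were not used.

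Summits were joined to genes of Ensembl release 115 (WBcel235, the same assembly as ce11), positions counted from 1, with Python 3.11.15, pandas 2.3.3 and numpy 2.4.6. A gene had a site where a summit lay inside it or within 2000 bp of its 5′ end. Trans-splicing removes the true start of many worm transcripts, so an annotated 5′ end may be some way inside the transcribed unit. Summits of different lists were matched within 100 bp. MicroRNA genes were found through their RefSeq symbols and identical coordinates. The joining of summits to coding genes and the matching of summits within 100 bp were tested on simulated lists, and the other steps were not. With 1 group no test between samples was made, and shares are descriptions. Neighbouring genes share summits and are not independent. The members, the further pathway list, the motifs, the rule and the alternatives were chosen with earlier results of these data known. The text names all 10 timing genes, every gene of the further list with a summit, and genes that share a summit. Windows for CTGCGTCT of other sizes were added after its matches had been seen.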

Additional observations from a re-analysis of the deposited data

How the results depend on the processing

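The count of timing genes with a summit (7, with 10 summits) changed most with the region around the gene and with the strength asked of a peak. Within 1000 bp of the 5′ end only, 3 genes had 4 summits, and 7 genes of the further list had one, in place of 12. The share of all coding genes was 8.09% by that rule, in place of 11.9%. With the 937 strongest peaks 4 genes had 5 summits, against 6.94% of coding genes with a summit, and 5 of these summits were matched in both replicates. At 50 bp the matched summits numbered 5, in place of 9. GAGAGA was in 0, 6 and 7 windows of 25 bp, 100 bp and the whole peak (3 at 50 bp on either side). Among all IDR windows its shares were 13.0%, 36.9% and 44.9% (23.8% at 50 bp). CTGCGTCT was in 0 and 5 at 25 bp and the whole peak (3), against 5.23% and 15.1% (8.75%). AAGTT was in 1 and 3 at 100 bp and the whole peak (0), against 26.5% and 47.1% (13.2%). With either replicate alone the genes numbered 7, with 9 to 11 summits, against 11.6% of coding genes in each. The further list gave 12 with either, but an equal count does not show that the genes were the same. The other settings moved no count by over 1.5 times. Among them, 500 bp of the 5′ end or inside the gene left 5 timing genes and 8 of the further list, against 7.91% of coding genes. Counting only the coding gene with the nearest 5′ end left 6 and 8, against 8.23%, by a rule that no RNA gene can meet. No paired analysis was possible because the series has 1 group. Depth is unknown, and 2 replicates limit every statement about a single site.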
